A study of Homo sapiens with 14 samples.

Results

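Actin and its binding proteins were followed here through the mRNAs of 10 genes in K562 cells, a human chronic myeloid leukaemia line that grows in suspension. The genes were ACTB and ACTG1 (the β and γ cytoplasmic actins), CFL1, PFN1 and TMSB10 (cofilin, profilin and thymosin β10, which act on actin monomers and filament turnover), ARPC2 and ARPC3 (subunits of the Arp2/3 complex), CAPZB (the β subunit of capping protein), MYL6 (a myosin essential light chain) and TPM3 (a tropomyosin). They were chosen by gene name, and they are 10 of the 6714 named genes with a scored transcript. Their named rows made up 100 transcripts. For each gene the transcript of highest mean RPKM among these was described. RPKM is read density, scaled to transcript length and to the mapped reads of the library. Rows under retired transcript names, some of ACTB among them, were not used because the gene annotation used here lacks those names. Whether such a row had a higher RPKM was not tested.

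RNA structure was probed with 2 reagents. In icSHAPE, cells (in vivo) or RNA that had been purified and refolded (in vitro) received NAI-N3 at 100 mM for 5 min, which acylates the 2′-hydroxyl of flexible nucleotides. In icLASER, cells or refolded RNA were given NAz-N3 (stock at 1 M) and then long-wavelength light for 10 min, which activates the probe towards solvent-accessible purines. There were 3 icSHAPE in vivo libraries, 2 icSHAPE in vitro libraries, 3 DMSO icSHAPE controls without the reagent, 2 icLASER in vivo libraries, 2 icLASER in vitro libraries and 2 icLASER controls that the titles mark as without UV, although their protocol text names a UV step. All used poly-A enriched RNA of unmodified K562 cells. The authors pooled the libraries of each reagent and condition into 4 profiles, which give an RPKM for each transcript and a score for each nucleotide, from 0 (protected or unreacted) to 1 (most reactive). With 1 profile per reagent and condition there is no spread between replicates, so no difference below was tested and none carries a p-value. No counts accompany the profiles, and the depth behind each score is unknown.

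Actin monomers add to filament ends with bound ATP, profilin delivers monomers to growing ends, thymosins sequester them, cofilin severs and disassembles older filaments, the Arp2/3 complex starts branches, capping protein stops growth at barbed ends, and tropomyosin and myosin decorate filaments and pull on them. The β-actin mRNA is the textbook case of a localized message. Its 3′ UTR opens with a zipcode, an element bound by the protein ZBP1 (IGF2BP1), which carries the mRNA to the edge of motile cells. The zipcode was taken as the first 54 nucleotides after the stop codon, at chr7:5527694-5527747 on the minus strand of GRCh38. Inside it lies the 2-part site that this protein contacts, at chr7:5527719-5527746 in the last exon, nucleotides 2 to 29 after the stop codon. It is shown because its scores are given below nucleotide by nucleotide. The capitals mark its 2 motifs, CGGAC and ACACCC.
ACTB zipcode site: CGGACtatgacttagttgcgttACACCC
CGGAC occurred in 86 of 1204 3′ UTRs searched on the sense strand (7.14%) and ACACCC in 96 (7.97%), and none of the 1204 held both motifs within 40 nt. Among the members, ACTB alone held both within 40 nt. ACTG1 and TMSB10 each had a CGGAC without the second motif, and CFL1 had 2 copies of ACACCC without the first.

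Of the 10 transcripts described, that of TMSB10 had the highest RPKM in each profile. These are values of 1 transcript per gene and do not rank whole messages. Among the named rows, TMSB10 had 1 scored transcript, while ACTB had 12. The TMSB10 RPKM was 324 with icSHAPE in vitro, 384 with icSHAPE in vivo, 316 with icLASER in vitro and 548 with icLASER in vivo. ACTB followed in mean RPKM, but its level moved with the reagent. Its RPKM was 91.3 and 84.8 with icSHAPE in vitro and in vivo, against 269 and 381 with icLASER. The icLASER value was 2.95 times the icSHAPE value in vitro and 4.50 times in vivo, while the same ratio lay between 0.571 (ARPC3) and 1.57 (ACTG1) in vitro and between 0.716 (ARPC3) and 1.87 (ACTG1) in vivo for the other members with all 4 values. The ACTB row concerned is a short transcript (ENST00000464611, 715 nt) that is spliced across most of the zipcode, so the zipcode was read from another row. PFN1 came next, with 120, 159, 175 and 177 in the same order.

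The Arp2/3 subunits stood far apart. ARPC3 had RPKM values of 114 and 113 with icSHAPE and 64.9 and 81.2 with icLASER, in vitro and in vivo. ARPC2 had 13.8 and 14.2 with icSHAPE and 12.8 and 13.5 with icLASER. Other members of intermediate RPKM were ACTG1, from 48.3 to 111, CFL1, from 49.8 to 67.1, and MYL6, from 45.5 to 65.7. TPM3 ranged from 13.9 to 17.8. CAPZB passed into the icLASER profiles alone, at 13.6 in vitro and 21.2 in vivo, above 29.3% and 45.5% of genes. Among 3711 genes with a transcript in all 4 profiles, TMSB10 exceeded 93.4% to 96.9% of genes, depending on the profile, and ARPC2 25.8% to 31.9%.

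RPKM was higher in vivo than in vitro for 7 of 9 members with icSHAPE, where 67.4% of all genes were higher, and for 9 of 10 with icLASER, where 66.1% were. The median ratio of the members was 1.18 with icSHAPE and 1.33 with icLASER, beside 1.09 and 1.16 over all genes. The largest icLASER ratios were those of TMSB10 (1.74), CAPZB (1.56) and ACTG1 (1.47), and the smallest was that of TPM3 (0.890). With icSHAPE the range ran from 0.929 (ACTB) to 1.32 (PFN1), and ARPC3 stayed at 113 to 114. ACTB thus had a ratio below 1 with icSHAPE and one of 1.42 with icLASER.

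Scores were next averaged over the 5′ UTR, the coding sequence and the 3′ UTR. For each member the transcript of highest mean RPKM that could be placed on the reference sequence and carries the 3 regions was used, and each average took the positions scored in both conditions of a reagent. For ACTB that row was ENST00000425660, annotated as a target of nonsense-mediated decay, which differs from the main ACTB mRNA in a 41 nt insert that was left out of every region. Over most of its length it has the sequence of the main mRNA, and the counting could not separate their reads.

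The 3′ UTR was the region in which the icLASER profiles of the members moved one way. All 10 members had a higher mean icLASER score in vivo than in vitro, so 0 of 10 were lower, where 12% of 1116 genes were, and 0 of 10 were once each profile was scaled to its own mean, beside 11.6% of genes. These means took every base, and with A and G positions alone 1 of 10 was lower. ARPC3 had the largest shift, from 0.134 in vitro to 0.258 in vivo over 300 positions. ARPC2 went from 0.0978 to 0.216 over 403 positions, CAPZB from 0.117 to 0.209 over 775, and ACTB from 0.181 to 0.271 over 562. At the low end, the MYL6 means were 0.0740 and 0.0759 (difference 0.00191). A MYL6 row with the whole coding sequence gave a 3′ UTR difference of 0.0242. The median difference of the members was 0.0732, beside 0.0558 over all genes, and the share of all genes with a smaller difference ran from 12.7% (MYL6) to 85.1% (ARPC3).

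With icSHAPE the 2 actins were the members with a lower 3′ UTR mean in vivo. ACTB took the opposite sign under 0 of 8 alternatives and ACTG1 under 2 of 8, although by the median of position differences 0 of 9 members were lower. The alternative with another MYL6 transcript left both actins as they were, so it could not change their sign. For ACTB the matching-length alternative held 1 transcript, the same row cut by its own annotated reading frame, so it brought in no other transcript. The ACTB mean was 0.154 in refolded RNA and 0.108 in cells (difference -0.0463), and 3.05% of 1116 genes had a lower value. ACTG1 had means of 0.133 and 0.122 (difference -0.0115). These 2 of 9 members were lower in vivo, where 19.9% of genes were, and 3 of 9 were after each profile was divided by its own mean score, where 39.9% of genes were, with ARPC3 as the added member. ACTG1 was higher in vivo with A and G positions alone and over its matching-length transcripts. The other 7 were higher, from 0.00334 in ARPC3 to 0.121 in MYL6. MYL6 had the highest value of the members, with means of 0.0519 in vitro and 0.173 in vivo and 98.3% of genes below it, although its icLASER difference was the lowest of the 10. TPM3, with the longest 3′ UTR of the set (1275 nt), had icSHAPE means of 0.0978 and 0.176. In 7 of the 9 members with both reagents the 3′ UTR was higher in vivo with both, where 70.2% of 1114 genes were, and in ACTB and ACTG1 the reagents gave opposite signs.

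Coding sequences differed less. With icSHAPE, 2 of 9 members were lower in vivo, where 15.9% of 1204 genes were. TMSB10 was lower by the most, with means of 0.265 in vitro and 0.220 in vivo over its 135 coding nucleotides, and 2.41% of genes had a lower difference. TPM3 was lower by -0.00352. ARPC2 and MYL6 had the highest values, 0.0362 and 0.0352, and CFL1 was level, with 0.164 in both conditions. The split depended on scaling, since the mean score of a whole profile was 0.141 in vitro and 0.167 in vivo with icSHAPE. When each profile was divided by its own mean score, 8 of 9 members were lower in vivo, and 53.3% of genes were. With icLASER, whose profile means were 0.152 and 0.151, 8 of 10 members were lower in vivo, where 50.3% of genes were, and 8 of 10 were after that scaling, beside 49.3%. A MYL6 row with the whole coding sequence had a coding difference of 0.00431, and with it the icLASER count was 7 of 10.

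ACTB showed the lowest icLASER coding difference. Over 1128 positions its mean was 0.160 for refolded RNA and 0.109 for cells (difference -0.0509), with 604 positions lower, 315 higher and the rest equal. The share of positions with a score of at least 0.5 was 10.3% in vitro and 5.59% in vivo. The icSHAPE coding means of ACTB were 0.191 and 0.199, and that share was 13.4% in both. Its close relative ACTG1 had icLASER coding means of 0.164 and 0.151 and icSHAPE means of 0.176 and 0.192. CFL1 and PFN1 were the members whose icLASER coding mean was higher in vivo, by 0.0365 and 0.0134. CFL1 lay above 86.5% of genes.

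In the 5′ UTR, 6 of 9 members were lower in vivo with icSHAPE, where 35.3% of 1046 genes were (0 of 9 by the median of position differences and 1 of 7 over matching-length transcripts), and 8 of 10 with icLASER, where 76.1% of 1038 genes were. Under division by the profile means the icSHAPE count was 8 of 9, beside 55.4% of genes, and the icLASER count 8 of 10, beside 75.3%. These are short regions, from 22 scored positions in ACTG1 to 136 in PFN1. TPM3 had the lowest icSHAPE value, with means of 0.272 in vitro and 0.180 in vivo. ARPC2 and MYL6 had the lowest icLASER differences, both -0.102. The MYL6 row is partial (269 coding nt), and a row with the whole coding sequence gave 5′ UTR differences of -0.0377 with icLASER and 0.0731 with icSHAPE, against -0.0249 in the partial row. PFN1, whose 5′ UTR is 78.7% G and C, had the highest icLASER difference, 0.0395, with means of 0.291 in vitro and 0.331 in vivo. Of 9 members with both reagents, 0 were higher in vivo with both, where 13.8% of genes were, 4 were lower with both, where 26.1% were, and 5 had opposite signs.

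Within each message the 3′ UTR was less reactive than the coding sequence in 3 of the 4 profiles. Its mean exceeded that of the coding sequence in 0 of 9 members with icSHAPE in vitro and 0 of 9 in vivo, where 11.8% and 8.33% of genes showed that order, and in 1 of 10 with icLASER in vitro, where 10.6% did. With icLASER in vivo the count was 5 of 10, and 45.3% of genes. The 5 were ACTB, ACTG1, ARPC2, ARPC3 and CAPZB. In ACTB the in vivo icLASER means were 0.109 over the coding sequence and 0.271 over the 3′ UTR. In TMSB10, PFN1, CFL1, MYL6 and TPM3 the coding sequence kept the higher mean.

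In the ACTB row used for regions, the zipcode scored nearly alike in cells and refolded RNA. Over its 54 nucleotides the icSHAPE scores averaged 0.156 for refolded RNA and 0.163 for cells, and 24 nucleotides were lower in vivo and 27 higher. The icLASER scores averaged 0.106 in both (difference -0.0005), and 22 nucleotides were lower and 29 higher. Over the 28 nt of the 2-part site the icSHAPE means were 0.167 and 0.177, and the icLASER means 0.132 and 0.109, with 18 nucleotides lower in vivo and 9 higher. The other named row that holds the whole element, a retained-intron transcript, gave zipcode differences of 0.0655 with icSHAPE and -0.00519 with icLASER.

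Along the site printed above, at the deposited positions, the end of the first motif was reactive and the second motif was not. Positions are counted from 1 at the first nucleotide after the stop codon, and scores are placed as deposited, so that moving them 1 nt downstream would give each named nucleotide's score to its next neighbour. G4, in the CGGAC motif, scored 0.693 and 0.685 with icSHAPE and 1 and 1 with icLASER, in vitro and in vivo. A5 scored 0.367 and 0.265 with icSHAPE and C6 scored 0.563 and 0.375, both lower in vivo. U7, next to the motif, scored 0.796 and 0.825 with icSHAPE. In the ACACCC motif the icSHAPE scores never passed 0.132 in vitro or 0.0970 in vivo, and the icLASER scores never passed 0.0350. U23, directly before this motif, scored 0.470 and 0.445 with icSHAPE. Moved 1 nt downstream, those scores would fall on A24, the first base of the motif. Between the motifs, G10 scored 0.730 and 0.734 with icLASER, and G21 scored 0.0110 and 0.326 with icSHAPE, the largest in vivo excess within the site, beside 0.323 and 0.283 with icLASER. After the site, U31 had icSHAPE scores of 0.676 in vitro and 0.324 in vivo. G36 was at 1 in both icLASER profiles and at 0.869 and 1 with icSHAPE.

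The 54 nucleotides can be set beside windows of the same length and beside other messages. Of 1756 windows of 54 nt along the same ACTB row, 53.1% had a lower icSHAPE difference and 67.2% a lower icLASER difference, so the icSHAPE value lay near the middle of its own transcript. In the first 54 nt of the other members' 3′ UTRs the icSHAPE difference ran from -0.131 (ARPC3) to 0.131 (PFN1). The icLASER difference ran from -0.0339 (ACTG1) to 0.0600 (ARPC2). ACTG1, which lacks the 2-part site, had icSHAPE means of 0.129 and 0.189 and icLASER means of 0.242 and 0.208 there. In predicted folding the zipcode nucleotides had a mean probability of being unpaired of 0.563, beside 0.494 over the rest of the 3′ UTR.

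Directly downstream of the zipcode lay a U-rich stretch that was picked out after its values were seen. It is the longest run within nucleotides 55 to 120 whose icSHAPE in vivo scores all lie under 0.2, so its low in vivo level is a description. From nucleotide 65 to 114 after the stop codon, where 64% of bases are U, icSHAPE scores averaged 0.415 for refolded RNA and 0.0113 for cells. In vitro 17 of the 50 nucleotides scored at least 0.5 and 3 scored 0. In vivo none reached 0.5, 27 scored 0 and the highest was 0.102. The icLASER profiles did not follow: their means were 0.465 in vitro and 0.640 in vivo, and 20 nucleotides were at 1 in vivo against 7 in vitro. Many of those at 1 in vivo were U, as from U89 to U94, although the activated probe is directed at purines. What an icLASER score at U reflects was not tested. At the next 6 nucleotides, all U, the icSHAPE mean was 0.127 in vitro and 0.517 in vivo. The retained-intron row had the same pattern over nucleotides 55 to 120, with icSHAPE means of 0.355 and 0.0825 and icLASER means of 0.487 and 0.620. Without those nucleotides the icSHAPE difference of the ACTB 3′ UTR was -0.0130 in place of -0.0463, while the icLASER difference was 0.0829 in place of 0.0894. How reads map in a run of U was not examined, and its part in the values of the stretch was not tested.

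**Figure D1:**
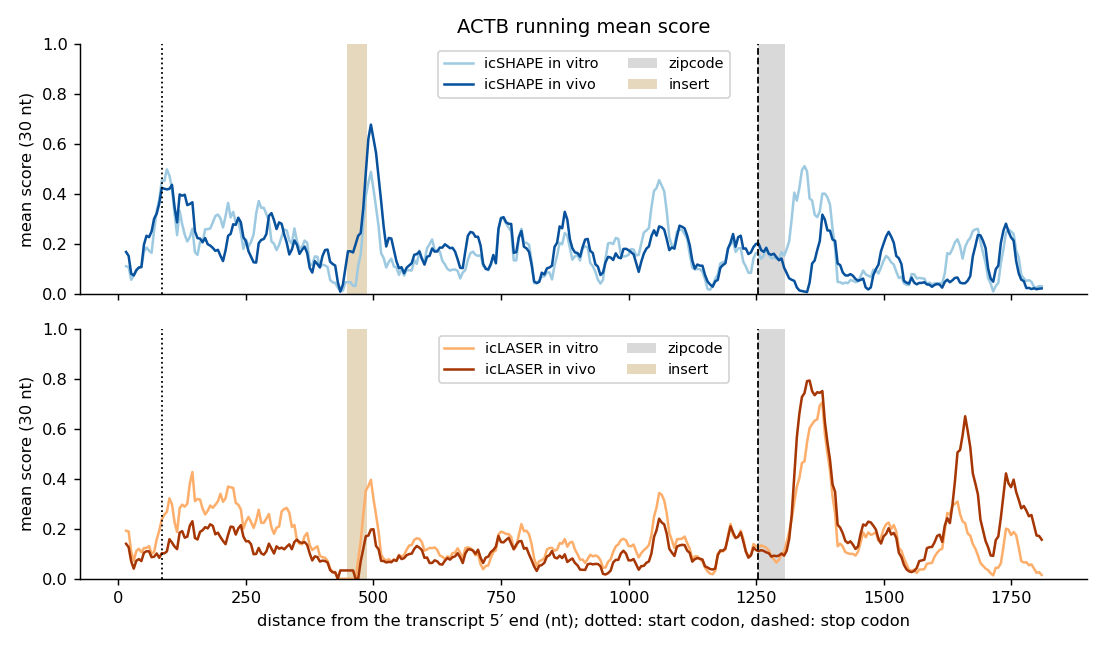
Running mean score over 30 nt along the ACTB transcript used for regions, in vitro (light) and in vivo (dark), with icSHAPE above and icLASER below. Grey marks the zipcode, tan the 41 nt insert, the dotted line the start codon and the dashed line the stop codon. The in vitro and in vivo lines run together over the zipcode and part just after it.

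ACTB and ACTG1 encode nearly the same protein, differing at 4 of 375 residues, and their coding sequences could be aligned without gaps. They were identical at 1029 of 1128 nucleotides (91.2%), and 94 of the 99 substitutions fell at codon position 3. The longest identical run was 59 nt. Reads that lie in such runs cannot be assigned to one gene, so likeness there is uncertain. At 132 positions the 25 nt around the position were identical, and there the scores of the pair correlated with r = 0.747 (icSHAPE in vitro), 0.883 (icSHAPE in vivo), 0.746 (icLASER in vitro) and 0.858 (icLASER in vivo). At the other 996 positions, which include those beside the ACTB insert, r was 0.521, 0.692, 0.636 and 0.662 in the same order. These are correlations across nucleotides of 2 transcripts in 1 profile, and nucleotides are not independent replicates. Scores of the pair were exactly equal at 19.7% of the 132 positions with icSHAPE in vitro and at 11.4% in vivo, beside 18.4% and 10.0% of the other positions.

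At the 99 positions where the 2 actins carry different bases, the icLASER correlation was lower, 0.290 in vitro and 0.163 in vivo, than the icSHAPE correlation, 0.387 and 0.679. The in vivo minus in vitro differences of the pair correlated weakly, with r of 0.236 for icSHAPE and 0.243 for icLASER over all 1128 positions. The 30 nt window of ACTB with the lowest mean difference over both reagents shows how far the pair could part. It covers coding nucleotides 174 to 203 in an exon at chr7:5529321-5529350 (minus strand), and the aligned stretch of ACTG1 is at chr17:81512063-81512092 (minus strand), also within 1 exon. Capitals mark the 3 bases that differ.
ACTB: ccagagcaagAgAggcatcctCaccctgaa
ACTG1: ccagagcaagCgTggcatcctGaccctgaa
The mean icSHAPE score of the ACTB window was 0.347 in vitro and 0.137 in vivo, and its icLASER mean was 0.243 and 0.10. The aligned ACTG1 window had icSHAPE means of 0.148 and 0.163 and icLASER means of 0.216 and 0.176. The ACTB window was chosen for its low difference, and the ACTG1 window only by alignment.

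The lowest windows of other members are shown where they lie in the coding sequence within 1 exon, with the highest windows that do so. In ARPC2 the lowest window lies in the coding sequence near the start, at chr2:218217494-218217523 (plus strand), with icSHAPE means of 0.286 in vitro and 0.121 in vivo and icLASER means of 0.362 and 0.168. In ARPC3 the lowest window, at chr12:110436574-110436603 (minus strand), had icSHAPE means of 0.397 and 0.136 and icLASER means of 0.239 and 0.227. In MYL6 the lowest window, at chr12:56160069-56160098 (plus strand), had icSHAPE means of 0.337 and 0.20 and icLASER means of 0.392 and 0.257. The highest window of MYL6 also lay in the coding sequence, at chr12:56160287-56160316, with icSHAPE means of 0.121 and 0.322 and icLASER means of 0.0758 and 0.212. In TPM3 both extremes also lay in the coding sequence. Its lowest window, at chr1:154173128-154173157 (minus strand), had icSHAPE means of 0.563 and 0.234 and icLASER means of 0.691 and 0.542. Its highest, at chr1:154172941-154172970, had icSHAPE means of 0.298 and 0.379 and icLASER means of 0.227 and 0.565. No part of these sequences is in capitals.
PFN1 lowest: atggccgggtggaacgcctacatcgacaac
ARPC2 lowest: ccgcatcatcgaggagacgctcgcgctcaa
ARPC3 lowest: tccacttaacgcaatttatgccaaacctgc
MYL6 lowest: cgaaggacttcgggtgtttgacaaggaagg
MYL6 highest: catgaggacagcaatggttgtatcaactat
TPM3 lowest: agatggaactccaggaaatccaactcaaag
TPM3 highest: taagttggtgatcattgaaggagacttgga
Outside MYL6 and TPM3, the highest window of every member lay in the 3′ UTR, with that of CAPZB taken from icLASER alone. How often this holds over all genes was not computed. The mean 3′ UTR score was lower in vivo in 12% of genes with icLASER and 19.9% with icSHAPE. The share of A and U in the highest windows of the 3′ UTR ran from 43.3% in ACTG1 and 50% in ACTB to 83.3% in TMSB10, with 66.7% in ARPC3 and 73.3% in PFN1. The icLASER means were 0.194 and 0.535 (ARPC3), 0.0564 and 0.383 (PFN1) and 0.157 and 0.406 (TMSB10), in vitro and in vivo. The PFN1 window scored 0.0319 and 0.0276 with icSHAPE, so its difference came from icLASER. The lowest PFN1 window, at chr17:4948365-4948394 (minus strand), was its first 30 coding nucleotides, with icSHAPE means of 0.289 and 0.231 and icLASER means of 0.188 and 0.153.

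At the start codon the icSHAPE peak lay on the base preceding the AUG at the deposited positions, and with scores moved 1 nt downstream it would lie on the A of the AUG. Over 9 members this base averaged 0.726 in refolded RNA and 0.588 in cells, beside 0.254 and 0.234 over the 50 nt on each side. It exceeded that flank in 8 of 9 members in both conditions, where 69.2% of 1141 genes and 78.7% of 1139 genes did. ACTB scored 1 there in vitro and 0.778 in vivo, ARPC3 scored 1 and 1, and TMSB10 0.809 and 1. ARPC2 was the exception, with 0.111 and 0.132. The middle nucleotide of the AUG averaged 0.123 and 0.0471. With icLASER the preceding base exceeded the flank in 5 of 10 members in vitro (59.8% of genes) and 4 of 10 in vivo (56.6%).

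With icLASER the AUG scored lower in cells by its mean over members. Its first nucleotide had a mean of 0.182 in vitro and 0.0629 in vivo over 10 members, and it exceeded the flank in 4 of 10 in vitro (20.9% of genes) and 0 of 10 in vivo (14.6% of genes). The G that ends it had a mean of 0.474 in vitro and 0.260 in vivo and exceeded the flank in 7 of 10 in vitro (63.2% of genes) and 3 of 10 in vivo (51.6%). These are deposited positions. With scores moved 1 nt downstream, the first nucleotide would take the preceding base's means, 0.448 in vitro and 0.286 in vivo. The G would then take those of the middle nucleotide, 0.122 and 0.0491. As deposited, the G of ACTG1 scored 0.595 in vitro and 0.0900 in vivo, that of MYL6 0.453 and 0.0670, and that of ACTB 0.312 and 0.0650. ARPC2 kept a score of 1 in both. In TMSB10 it scored higher in cells, 0.150 and 0.348, and in CFL1 it scored 0.0160 and 0.0410. At the stop codon, the middle nucleotide had icSHAPE means of 0.242 in vitro and 0.484 in vivo over 8 members and exceeded the flank in 5 and 7 of them, where 41.3% and 49.5% of genes did. With icLASER it did so in 6 of 9 in both conditions, beside 60.7% and 55.4% of genes. With scores moved 1 nt downstream these scores would belong to the last nucleotide of the stop codon. MYL6 was left out there because its row skips the exon with the stop codon of the main transcript.

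Scores followed the reading frame. Positions are as deposited, and with scores moved 1 nt downstream those of codon position 2 would belong to position 3. Codon position 2 had the lowest mean of the 3 positions in 5 of 8 members with icSHAPE in vitro and 7 of 8 in vivo, where 64.7% and 72.8% of genes showed it, and in 9 of 9 in both icLASER profiles, where 83.1% and 83.6% did. In ACTB the icLASER in vivo means were 0.143, 0.0566 and 0.128 at positions 1, 2 and 3. In icSHAPE in vivo they were 0.285, 0.104 and 0.208. The median member means with icSHAPE in vivo were 0.264, 0.115 and 0.205, beside 0.233, 0.163 and 0.189 over all genes. Codon positions differ in their bases, and base use was not removed from these means.

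Base identity set the scores apart. With icSHAPE in vivo the median member mean was 0.221 at A, 0.195 at U, 0.185 at G and 0.129 at C, and A was highest in 9 of 9 members. With each score moved 1 nt downstream the A mean was 0.336 and the G mean 0.0687. With icLASER in vivo G was highest in 10 of 10 members at the deposited positions. Its median was 0.334, against 0.160 at A, 0.133 at U and 0.0713 at C. After moving the scores by 1 nt, A was highest in 10 of 10. The A median was then 0.265, against 0.199 at U, 0.158 at G and 0.0881 at C, so U ranked above G.

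Predicted pairing separated the icSHAPE scores of every member and the icLASER scores of some. Positions predicted to be unpaired (probability at least 0.8) had a higher mean icSHAPE score than those predicted to be paired (at most 0.2) in 9 of 9 members in both conditions, where 99.8% of genes did. The median gap was 0.180 in vitro and 0.137 in vivo. ACTG1 had the widest gap in vitro, 0.293 against 0.0807, and PFN1 the narrowest, 0.163 against 0.0650. With icLASER the gap was positive in 7 of 10 members in vitro (79.8% of genes) and 4 of 10 in vivo (62.3%), with medians of 0.0105 and -0.0159. TMSB10 had the widest icLASER gap in vivo, 0.261 against 0.161, and PFN1 the most negative, 0.118 against 0.204. With scores moved 1 nt downstream the icLASER counts were 9 and 7 of 10, where 94.3% and 90.4% of genes were positive, and the medians were 0.0590 and 0.0461. The icSHAPE counts stayed at 9 of 9, where 99.7% and 99.8% of genes were positive.

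By their medians, the in vitro and in vivo scores of one reagent followed each other more closely than the scores of the 2 reagents. MYL6 was an exception for icSHAPE, with r = 0.517 between conditions and 0.547 between reagents in vitro. The median r was 0.580 for icSHAPE and 0.687 for icLASER between conditions. It was 0.453 in vitro and 0.371 in vivo between reagents. Over all genes these medians were 0.501, 0.599, 0.393 and 0.382. TMSB10 (0.803), ACTB (0.782) and ACTG1 (0.768) had the highest icLASER values between conditions and ARPC2 (0.411) the lowest. ARPC2, of low RPKM, was also lowest for icSHAPE, at 0.412, where ACTG1 was highest at 0.722. The points are nucleotides of 1 transcript that share libraries and base composition.

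Of 60 further actin cytoskeleton genes on a fixed list, 31 had a transcript in all 4 profiles, and 22 had one whose length matched the reference and could be cut into regions. The highest mean RPKM of a single transcript was that of TMSB4X (thymosin β4, 306), followed by TAGLN2 (133) and RHOA (74.6). In the 3′ UTR, 17 of 20 had a higher icLASER score in vivo and 3 a lower one, with a median difference of 0.0509, where 12% of all genes were lower. With icSHAPE 15 were higher and 5 lower, where 19.9% of all genes were lower. In the coding sequence 18 of 22 were higher and 4 lower with icSHAPE (15.9% of all genes lower), and 9 were higher and 13 lower with icLASER (50.3% of all genes lower). In the 5′ UTR 13 of 18 were higher and 5 lower with icSHAPE (35.3% of all genes lower), unlike the members, of which 6 of 9 were lower. With icLASER 5 of 19 were higher there and 13 lower (76.1% of all genes lower). RPKM was higher in vivo for 21 of 31 with icSHAPE, where 67.4% of all genes were higher, and for 18 of 31 with icLASER, where 66.1% were. TMSB4X had the lowest icSHAPE coding difference of the list, with means of 0.295 in vitro and 0.209 in vivo. The paralogue TMSB10 had the lowest of the members. CAPG, a filament-capping protein, had the highest, 0.127 and 0.199. With icLASER the lowest was CORO1C (coronin 1C), 0.215 and 0.131.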

How the data were processed

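Libraries of K562 poly-A RNA were trimmed with Trimmomatic and aligned with Bowtie2 by the authors, against GRCh38 transcripts of Ensembl release 88. Reverse transcription stops of treated and control libraries were then turned by the icSHAPE pipeline into 1 profile per reagent and condition, with replicates pooled and the final coverage filters set to 0. The deposited columns hold, per transcript, a length, an RPKM and a score (0 to 1) for each nucleotide. The first 6 and the last 30 nt are unscored, and 16 icSHAPE scores lie outside 0 to 1. RPKM values computed by the authors were used as deposited, and no row fell below 5.01.

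The members and lists were chosen with earlier results of these data known. Gene names, regions and sequences came from GENCODE 44, read with Python 3.11.15 and Biopython 1.88. Rows whose transcript name is absent from GENCODE 44, such as retired ACTB names, were not used. Rows whose length differs from the reference transcript were placed where their scores best followed the mean score of each 4 nt context, if the whole row and both of its ends gave the same offset. Among 55 rows of matching length this found offset 0 for 54. This replaced the planned use of a length-matched transcript. Coding positions of ACTB and MYL6 were taken from the MANE Select transcript through the genome, and the regions of TPM3 (ENST00000330188) and CAPZB (ENST00000375142) from the row of highest RPKM that could be placed. Regions needed at least 20 positions scored in both conditions, and correlations at least 100. Pairing was predicted with RNAplfold (ViennaRNA 2.7.2, window 150, span 100). The comparison over all genes used 1 length-matched coding transcript per gene, and 6 members are among its 1204 genes. Named windows are, per member, the 30 nt with the lowest and highest mean difference over both reagents, and named genes of the wider list are the 3 of highest mean RPKM and the extremes of the coding difference. Region averaging and placement were tested on simulated data. The 4 profiles hold no replicates, so no statistical test was run. The highest icLASER coding difference of the wider list is not reported here.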

Additional observations from a re-analysis of the deposited data

How the results depend on the processing

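No paired analysis was possible because each profile pools its replicates. A value counts here as moved if it changed by more than 1.5 times; of 84 alternative values 59 did not, 19 moved and 6 changed sign. With the median of position differences, members lower in vivo numbered 0 (5′ UTR), 1 (coding) and 0 (3′ UTR) with icSHAPE, and 1 (coding) with icLASER. Over all transcripts of matching length (7 members) the counts were 1 (5′ UTR) and 1 (3′ UTR) with icSHAPE, and 4 (5′ UTR) and 4 (coding) with icLASER. With A and G positions alone they were 1 (coding) and 1 (3′ UTR) with icSHAPE and 1 (3′ UTR) with icLASER, and with the share of scores of at least 0.5 the icLASER 3′ UTR count was 1. Division by the profile means gave 8 in the icSHAPE coding sequence. The icSHAPE zipcode difference was -0.156 over the first 100 nt, -0.125 (in units of the profile mean) after division by the profile means, 0.00050 as a median and 0.0365 as the median of 2 transcripts. The icLASER one was 0.0678 over 100 nt, 0.0035 as a median, 0.00162 after division, -0.0227 over the 2-part site and -0.00284 over 2 transcripts. Scores moved 1 nt downstream gave icLASER pairing gaps of 0.0590 in vitro and 0.0461 in vivo. Alternatives chosen after seeing the data were all 4 profiles scored, another MYL6 transcript, and ACTB without nucleotides 55 to 120, which gave -0.0130 with icSHAPE. Identical surroundings of 51 nt left 9 positions, too few for a correlation. Of 57 region differences, 37 took the opposite sign under no region alternative that gave a value, counting a median of 0 as not opposite. The alternative with another MYL6 transcript could change the sign for MYL6 alone. The cause of these changes was not tested. Depth is unknown, so counting error could not be given.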
